A study of Homo sapiens with 6 samples.

Results

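The genes described here regulate chromatin in leukaemia driven by rearrangement of MLL (KMT2A): the MLL, DOT1L and Polycomb complexes, SWI/SNF, histone demethylases and deacetylases, acetylation enzymes and readers, and the enzymes of DNA methylation. They were chosen by name and not by a rule on their values, though earlier results of these data were known. Of the probe sets annotated to a single gene, the one with the highest mean over the 6 arrays stands for that gene. Of the 49 genes chosen, 46 were measured, among 19775 genes in all. CBX8, RNF2 and BAP1 were not analysed here.

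All samples were of MOLM-14, a human cell line of acute myeloid leukaemia with the MLL-AF9 rearrangement. Cells were kept for 24 h in triplicate wells with DMSO as vehicle or with cortistatin A (CA) at 10 nM, an inhibitor of the Mediator kinases CDK8 and CDK19, which gives 3 samples per group, hybridised singly to Affymetrix U133 Plus arrays. All 6 samples are the same cell line with the same fusion, and nothing in the labels says that the wells came from separate cultures, so each p-value reflects no more than the spread among these wells, which may be technical. In such bulk samples, fewer cells of a type and less RNA per cell cannot be told apart. The comparison asks which of these transcripts change when the kinases are inhibited.

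MLL is a histone methyltransferase that marks active promoters at H3K4, working with ASH2L, WDR5 and RBBP5 and held on chromatin by menin and by LEDGF, the product of PSIP1. In MLL leukaemia the part of MLL that binds chromatin is fused to a partner such as AF9 (MLLT3) that recruits elongation factors and DOT1L, the H3K79 methyltransferase, and genes such as the HOXA cluster stay active. Polycomb complexes oppose this by placing and reading H3K27 methylation, while SWI/SNF moves nucleosomes, deacetylases remove and acetyltransferases add acetyl groups, and DNMT and TET enzymes add and oxidise methyl groups on DNA.

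Most of these genes changed little after CA. Of the 46 measured, 5 rose and 4 fell at an adjusted p under 0.05 (limma, Benjamini-Hochberg over all 19775 genes), which is 19.6% of the members. Over all genes 11.1% were called, 6.64% higher and 4.49% lower. All 46 members had a mean log2 intensity of at least 6, and among the 10997 genes at that level 18.2% were called, so the share of the members was near the background. The median log2 change was 0.01 over the members and -0.00 over all genes, and the median size of a change was 0.06 and 0.08. The genes that rose were TET1, DNMT3B, CBX2, JMJD1C and KDM1A, and those that fell were HDAC1, TET3, HDAC9 and ARID2. The largest fold was 1.47 (TET1) and no called fall exceeded 1.18-fold. The CA and DMSO values did not overlap in 19 members (41.3%), 12 with CA above and 7 with CA below, against 31.8% of all genes and 47.8% of those 10997.

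**Figure D1:**
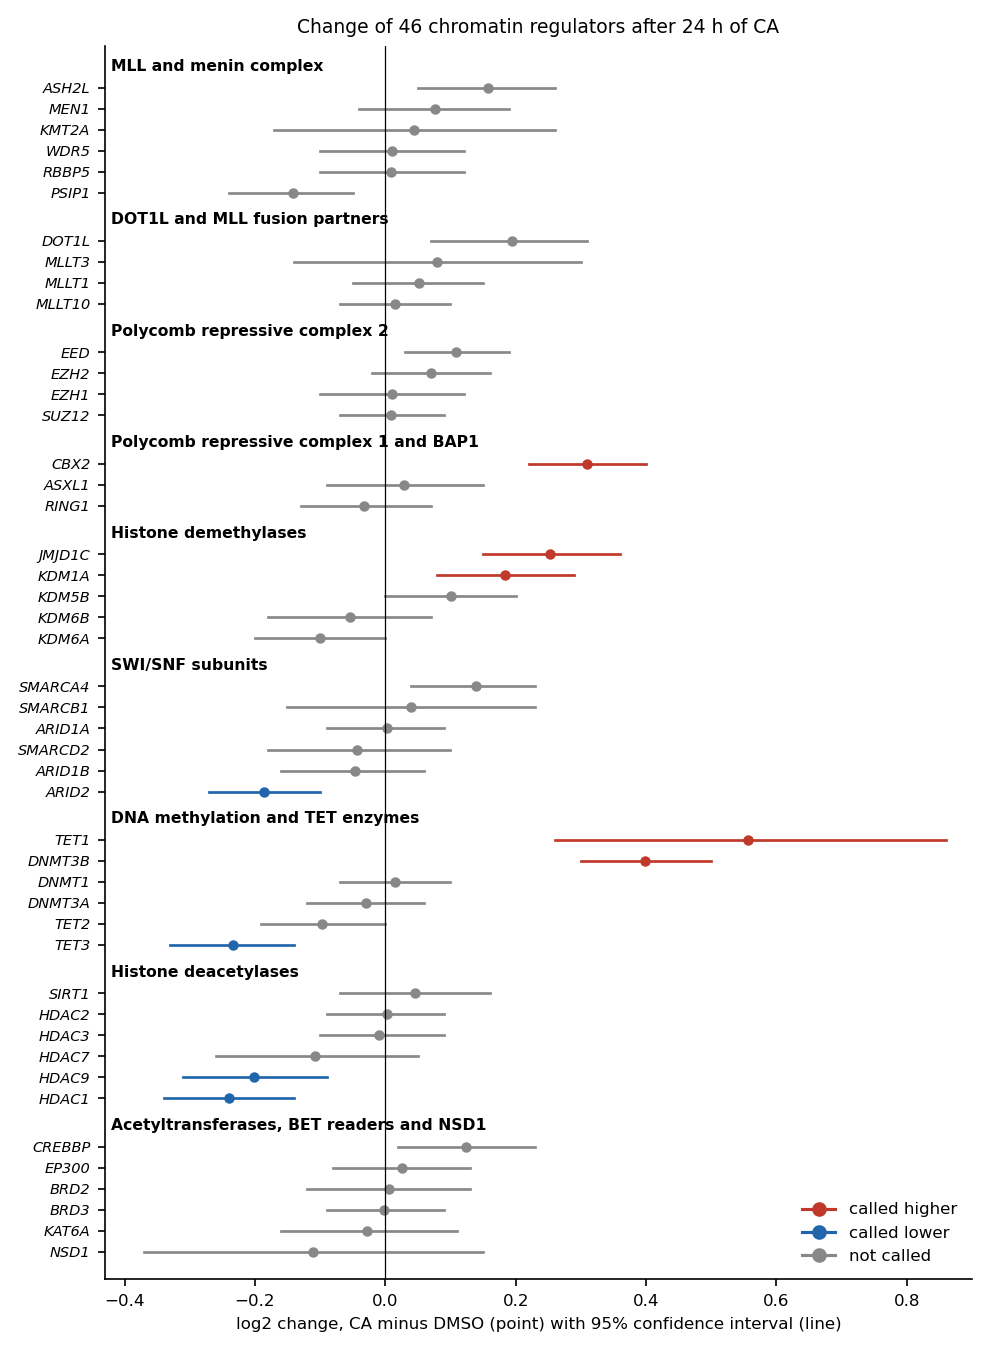
Log2 change (CA minus DMSO, 3 arrays each) of the 46 measured genes on the x axis, with 95% confidence intervals from limma, grouped by role; red genes were called higher, blue genes lower and grey genes were not called. The 5 red intervals lie above 0 and the 4 blue ones below it, none of the 10 MLL, DOT1L and fusion-partner genes is coloured, and TET1 has the widest interval of the called genes (0.26 to 0.86).

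The sequences before the start sites of 5 called genes are shown, because these genes moved in both directions and their RefSeq window meets the outer 5' end of the gene. Each is the 250 bases before the start, 5' to 3' on the gene's strand (RefSeq, build GRCh38.p14), with matches to 8 searched motifs in capitals. KDM1A is at chr1:23019218-23019467 (plus strand), JMJD1C at chr10:63521891-63522140 (minus), TET1 at chr10:68560087-68560336 (plus), HDAC1 at chr1:32291833-32292082 (plus) and HDAC9 at chr7:18086575-18086824 (plus).
KDM1A: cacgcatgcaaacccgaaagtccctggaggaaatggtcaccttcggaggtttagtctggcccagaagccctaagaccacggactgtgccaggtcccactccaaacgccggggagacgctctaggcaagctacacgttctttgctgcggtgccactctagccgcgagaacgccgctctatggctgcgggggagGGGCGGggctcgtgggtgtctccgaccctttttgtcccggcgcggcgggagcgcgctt
JMJD1C: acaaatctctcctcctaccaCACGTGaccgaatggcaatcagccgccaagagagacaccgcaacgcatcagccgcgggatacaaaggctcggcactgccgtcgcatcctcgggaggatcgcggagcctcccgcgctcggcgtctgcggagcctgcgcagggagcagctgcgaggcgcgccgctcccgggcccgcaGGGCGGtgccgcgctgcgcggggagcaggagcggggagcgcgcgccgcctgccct
TET1: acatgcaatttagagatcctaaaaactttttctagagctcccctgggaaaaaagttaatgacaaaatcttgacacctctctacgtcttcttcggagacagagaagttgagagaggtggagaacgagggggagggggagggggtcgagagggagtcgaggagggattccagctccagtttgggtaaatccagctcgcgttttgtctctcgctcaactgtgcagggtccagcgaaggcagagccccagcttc
HDAC1: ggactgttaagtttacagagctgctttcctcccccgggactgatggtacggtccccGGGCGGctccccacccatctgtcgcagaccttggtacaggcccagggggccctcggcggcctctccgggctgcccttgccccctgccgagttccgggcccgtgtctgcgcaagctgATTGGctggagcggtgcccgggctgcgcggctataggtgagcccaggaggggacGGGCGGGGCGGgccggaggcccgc
HDAC9: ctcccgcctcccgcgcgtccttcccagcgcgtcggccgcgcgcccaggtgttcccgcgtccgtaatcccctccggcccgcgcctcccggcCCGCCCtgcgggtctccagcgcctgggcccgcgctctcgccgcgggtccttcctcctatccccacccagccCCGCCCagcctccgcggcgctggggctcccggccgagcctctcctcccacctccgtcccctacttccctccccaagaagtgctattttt

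The motifs were GGGCGG (the GC box), CCGGAAG (ETS), CACGTG (E-box), CCAAT, TTCNNNGAA (the STAT palindrome), TGACGTCA (CRE), a simplified interferon-stimulated response element and the NRF1 palindrome, on both strands, with overlapping matches counted. TET1, which rose, held none of the 8 motifs and 9 CpG, the fewest of the 5, while HDAC1, which fell, held 3 GC boxes and 1 CCAAT, and HDAC9 2 GC boxes with 32 CpG. JMJD1C, which rose, held 35 CpG, 1 GC box and 1 E-box, and KDM1A 1 GC box and 23 CpG. Over the 78 windows of 41 measured members with an entry, the median was 23.0 CpG, against 17.0 over the 21490 windows of measured genes and 11.0 over all 35116 windows. Over all windows of the called genes, most of which lie inside the gene, the median was 10.0 CpG for 4 genes called higher (8 windows, from 3 to 35) and 12.5 for 3 called lower (8 windows, from 0 to 37). GGGCGG was in 61.5% of the members' windows (54.0% for measured genes, 42.6% for all windows) and CACGTG in 12.8% (7.38% and 6.34%). CCAAT was in 28.2% (32.4% and 32.0%), CCGGAAG in 3.85% (10.8% and 8.52%), TTCNNNGAA in 2.56% (5.87% and 6.57%) and the interferon-stimulated element in 1.28% (2.55% and 3.02%). TGACGTCA (2.09% and 1.65%) and the NRF1 palindrome (1.3% and 1.03%) were in 0 of the 78. Several windows can belong to 1 gene and overlap, and a match is a description of these letters only.

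Pearson's r across probe sets, which are not replicates, was 0.998 within a group and 0.996 to 0.997 between groups. For GAPDH, whose control probes report RNA integrity, the log2 signal at the 3' end exceeded that at the 5' end by 0.38 ± 0.02 with DMSO and by 0.48 ± 0.05 with CA (SD, n = 3). The groups did not overlap, and the exact 2-sided permutation p was 0.1, the smallest that 3 against 3 arrays can give, and the part of this difference in the results was not tested. For ACTB the excess was 2.27 ± 0.13 with DMSO and 2.38 ± 0.07 with CA (exact permutation p = 0.3, n = 3). Of the myeloid markers, LYZ was at 13.38 ± 0.10, CEBPA at 11.70 ± 0.03 and FLT3 at 11.69 ± 0.02 in DMSO, well above the array medians of 5.59 to 5.62. SPI1, a myeloid transcription factor, had a DMSO mean of 5.51 ± 0.12, below the medians, and the values carry no detection call. Of 9 measured myeloid markers 3 fell and 0 rose: CSF1R (6.71 in DMSO, change -0.39), ITGAM (7.65, -0.45) and KIT (5.64, -0.29). Over all genes 6.64% were called higher and 4.49% lower, and 18.2% of genes at a mean log2 of at least 6 were called either way. These shares apply to each marker list below too. With 1 array left out ITGAM was called in 6 of 6 fits, CSF1R in 5 and KIT, near the array medians, in 1. CSF3R was lower on each CA array without a call (-0.59, adjusted p = 0.06), though 1 of its 2 probe sets was called. MPO was at 0.06 (adjusted p = 0.501), but 1 of its 2 probe sets was called, and their highest change was 0.40. The mean log2 over the list was 8.72 to 8.77 in DMSO and 8.56 in each CA array. Genes listed for other cell types moved with CA in a few cases. Of the T and NK list 1 of 6 rose (NCAM1), of the B-cell list 1 of 4 (PAX5) and of the erythroid and megakaryocyte list 1 of 5 (EPOR). Of the epithelial and stromal list 2 of 7 rose, KRT18 and PECAM1, and PECAM1 is not particular to those cells. With 1 array left out KRT18 was called in 0 of 6 fits, EPOR in 2, and NCAM1, PAX5 and PECAM1 in all 6. The lowest change of any probe set was -0.28 for NCAM1, -0.02 for PAX5 and -0.05 for EPOR. The mean log2 over those lists was 5.61 to 5.68 in DMSO and 5.71 to 5.81 in CA for T and NK cells, 6.36 to 6.41 and 6.45 to 6.53 for B cells, 6.40 to 6.46 and 6.45 to 6.54 for erythroid and megakaryocyte cells, and 6.65 to 6.69 and 6.75 to 6.88 for epithelial and stromal cells. The markers that rose were at 10.30 (NCAM1), 9.68 (PAX5), 7.56 (EPOR), 9.49 (KRT18) and 10.84 (PECAM1) in DMSO, all above the array medians. Of the markers in those lists below the medians, CD3E (4.71 in DMSO, change 0.06) and MS4A1 (4.14, 0.07) overlapped between groups. So did CD3G (4.08, -0.10), CD2 (4.29, 0.05), CD8A (5.14, -0.03), PF4 (5.11, -0.03), KRT19 (4.42, 0.14) and COL1A2 (5.31, -0.01). CD3D (5.37, change 0.28, adjusted p = 0.0574) and EPCAM (3.39, change 0.26, adjusted p = 0.146) were higher on each CA array without a call. The part of these markers in the results was not tested.

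In the MLL and menin complex, 0 of 6 genes were called by limma, and 2 (PSIP1 and ASH2L) had an unadjusted p under 0.05. The share of all genes at that unadjusted level was not counted, so no excess can be read here or in the groups below. KMT2A (gene model at chr11:118436492-118526832 in RefSeq GRCh38.p14, as for the positions that follow), which encodes MLL, was at 8.53, 8.40 and 8.62 in DMSO and at 8.71, 8.56 and 8.42 in CA. The groups overlapped, and the log2 change was 0.04 (95% confidence interval -0.17 to 0.26, adjusted p = 0.821). None of the 11 KMT2A probe sets was called, at changes of -0.22 to 0.13. Labelling on these arrays starts from the 3' end of a transcript, and the fusion transcript has the 5' part of MLL and the 3' part of AF9. Probe sets near the 3' end of KMT2A would therefore read the unrearranged allele, and which probe sets read the fusion was not determined here. MEN1, which encodes menin, was at 7.74, 7.81 and 7.72 in DMSO and at 7.90, 7.83 and 7.78 in CA, with overlapping groups and a change of 0.08 (-0.04 to 0.19, adjusted p = 0.38).

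The tether PSIP1 and the subunit ASH2L came nearest to a call in that complex, in opposite directions. PSIP1 was at 11.22, 11.21 and 11.29 in DMSO and lower on each CA array, at 11.12, 11.08 and 11.10 (change -0.14, SE 0.04, adjusted p = 0.0721). Each of its 4 probe sets had a negative change, from -0.26 to -0.03. ASH2L was at 10.13, 10.10 and 10.10 in DMSO and higher on each CA array, at 10.22, 10.25 and 10.33 (0.16, SE 0.04, adjusted p = 0.0685). WDR5 and RBBP5, which hold the methyltransferase core together, were at 0.01 each (intervals of -0.10 to 0.12 for both). The 2 WDR5 probe sets differed: the other, at 9.17 in DMSO against 9.33, was at 0.16 (adjusted p = 0.128 per probe set). On the mean of both WDR5 was at 0.09 (adjusted p = 0.26).

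Of DOT1L and the fusion partners, 0 of 4 were called by limma, and 1 (DOT1L) had an unadjusted p under 0.05. DOT1L (chr19:2163933-2232578), the enzyme that MLL fusions depend on, was at 8.60, 8.64 and 8.60 in DMSO and at 8.74, 8.89 and 8.78 in CA, with no overlap. The change was 0.19 (SE 0.05, 95% confidence interval 0.07 to 0.31, adjusted p = 0.0575). Its other 2 probe sets were at 0.05 and -0.07, and on the mean of all 3 its change was 0.06 (adjusted p = 0.402). MLLT3 (chr9:20341669-20622499), the gene of AF9, was at 7.78, 7.58 and 7.70 in DMSO and at 7.93, 7.77 and 7.61 in CA. These groups overlapped (0.08, -0.14 to 0.30, adjusted p = 0.661), and both the normal and the fusion transcript can contribute to its signal. MLLT1, the gene of the related partner ENL, was at 0.05 and MLLT10, the gene of the DOT1L cofactor AF10, at 0.02 (adjusted p = 0.525 and 0.85).

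Polycomb repressive complex 2 writes H3K27 methylation through EZH1 or EZH2 with EED and SUZ12, and 0 of its 4 genes were called by limma, with EED at an unadjusted p of 0.0174. EED, which binds the mark and stimulates the enzyme, was at 10.84 on each DMSO array and at 10.94, 10.97 and 10.93 in CA. The groups were apart but the change was small (0.11, SE 0.03, adjusted p = 0.103). EZH2 was at 0.07 (-0.02 to 0.16), EZH1 at 0.01 (-0.10 to 0.12) and SUZ12 at 0.01 (-0.07 to 0.09).

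Polycomb repressive complex 1 reads H3K27 methylation through CBX proteins and ubiquitylates histone H2A through RING1 or RNF2. Of its 3 measured genes 1 rose and 0 fell, beside 18.2% called among all genes at a mean log2 of at least 6. CBX2 (chr17:79777311-79787983) was at 7.63, 7.60 and 7.62 in DMSO and at 7.88, 7.96 and 7.94 in CA. All CA values lay above all DMSO values, by 1.24-fold (log2 change 0.31, SE 0.04, adjusted p = 0.00437), and the call held with any 1 array left out (adjusted p of 0.0129 to 0.0241). It rested on the brightest of 4 CBX2 probe sets; the other 3 had DMSO means of 5.65 to 5.99 and changes of -0.10 to 0.00, and on the mean of the 4 CBX2 was at 0.03 (adjusted p = 0.779). RING1 was at -0.03 (-0.13 to 0.07), and ASXL1, a cofactor of the H2A deubiquitylase BAP1, at 0.03 (-0.09 to 0.15).

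Among 5 histone demethylases 2 rose and 0 fell, beside 18.2% called among all genes at a mean log2 of at least 6. JMJD1C (chr10:63167225-63521890), a JmjC-domain protein needed by several myeloid leukaemias, was at 12.02, 12.13 and 12.06 in DMSO and at 12.30, 12.32 and 12.35 in CA. The groups were apart (1.19-fold, 0.25, SE 0.04, adjusted p = 0.0151). Of its 6 probe sets 5 were positive, at up to 0.29, and 1 of low signal was at -0.12. The call was lost without DMSO replicate 1 or 3 or CA replicate 2 or 3 (adjusted p of up to 0.0629). It was also lost on the mean of all JMJD1C probe sets (0.15, adjusted p = 0.16) and with the most variable JMJD1C probe set (0.29, adjusted p = 0.12). With replicate number added as a block the adjusted p of JMJD1C was 0.0538. KDM1A (chr1:23019468-23083689), the LSD1 demethylase that acts on H3K4 with the CoREST corepressor, was at 9.98, 9.93 and 9.90 in DMSO and at 10.09, 10.11 and 10.17 in CA. The groups did not overlap (1.14-fold, 0.18, SE 0.04, adjusted p = 0.0405), but the call was lost with each of the 6 arrays left out (0.0648 to 0.13). KDM1A has 1 probe set, which ends in _s_at and can match several transcripts. Its call was also lost with replicate number added as a block (adjusted p = 0.12). The same held when every gene was read from its most variable probe set (adjusted p = 0.111). KDM5B, an H3K4 demethylase, was at 0.10 (adjusted p = 0.196). KDM6A, an H3K27 demethylase, was at -0.10 (0.203) and its relative KDM6B at -0.05 (0.588).

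Of 6 SWI/SNF genes 1 fell and 0 rose, beside 18.2% called among all genes at a mean log2 of at least 6. ARID2 (chr12:45729706-45908037), a subunit of the PBAF form of the complex, was at 8.72, 8.73 and 8.73 in DMSO and at 8.54, 8.52 and 8.56 in CA. The groups were well apart for their small spread (1.14-fold lower, -0.19, SE 0.03, adjusted p = 0.0194), and each of the 4 ARID2 probe sets had a negative change, from -0.24 to -0.16. With 1 array left out, whichever of the 6 it was, the adjusted p was 0.0526 to 0.0751. With the most variable probe set ARID2 was at -0.23 (adjusted p = 0.114), and with arrays centred on reference genes ARID2 was at -0.13 (adjusted p = 0.0658). With replicate number added as a block its adjusted p was 0.0779. The ATPase SMARCA4 was higher on each CA array (11.42, 11.50 and 11.45, against 11.35, 11.29 and 11.31) without a call (0.14, adjusted p = 0.0763). Of its 9 probe sets 6 were positive and 3 negative, from -0.12 to 0.14. On their mean SMARCA4 was at 0.02 (adjusted p = 0.882), and with the most variable probe set at -0.09 (adjusted p = 0.812). The BAF subunits ARID1A (0.00) and ARID1B (-0.05), the core subunit SMARCB1 (0.04) and the myeloid-enriched subunit SMARCD2 (-0.04) had adjusted p of 0.596 to 0.983.

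Of 6 enzymes of DNA methylation 2 rose and 1 fell, and the rises of TET1 and DNMT3B were the largest of the 46 genes. Among all genes at a mean log2 of at least 6, 18.2% were called, and groups this small were not tested against that share. DNMT3B (chr20:32762385-32809356), a de novo DNA methyltransferase, was at 8.41, 8.36 and 8.45 in DMSO and at 8.82, 8.83 and 8.76 in CA. All CA values were higher (1.32-fold, 0.40, SE 0.04, adjusted p = 0.00245), the smallest adjusted p of the 46 genes, and with any 1 array left out it was 0.00955 to 0.0147. DNMT3B has 1 probe set, which ends in _s_at and can match several transcripts, so no other probe set checks it. The maintenance enzyme DNMT1 was at 0.01 (-0.07 to 0.10) and the other de novo enzyme DNMT3A at -0.03 (-0.12 to 0.06). Probe sets bind with different strength, so a difference between 2 genes is read only for its shift between groups. Within each array, DNMT3B minus DNMT1 was -3.82 ± 0.05 in DMSO and -3.43 ± 0.02 in CA, and DNMT3B minus DNMT3A 0.54 ± 0.07 and 0.97 ± 0.05 (SD, n = 3; exact permutation p = 0.1 for each, 2-sided, the smallest possible). These pairs, like those below, were chosen after their values were seen. Each holds a gene already called, so the p adds no support.

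Of the TET dioxygenases, which oxidise 5-methylcytosine, TET1 rose and TET3 fell. TET1 (chr10:68560337-68694487), a partner of MLL fusions in rare leukaemias, was at 6.04, 6.26 and 5.90 in DMSO and at 6.45, 6.84 and 6.58 in CA. The CA values were all higher, but the spread within groups was the widest of the called genes (1.47-fold, 0.56, SE 0.13, adjusted p = 0.0376). Its DMSO level was near the array medians. Its other probe set, at 4.77 in DMSO and so below those medians, had a change of 0.35. Tested per probe set with limma, neither was called (adjusted p = 0.0541 for the brighter and 0.0857 for the dimmer). On the mean of both TET1 was at 0.45 (adjusted p = 0.0307). The call was lost without DMSO replicate 1 or 3 or CA replicate 2 or 3, at an adjusted p of up to 0.111.

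TET3 (chr2:73983631-74135498) was at 9.58, 9.62 and 9.63 in DMSO and at 9.34, 9.40 and 9.39 in CA. The CA values were all lower (1.18-fold, -0.23, SE 0.04, adjusted p = 0.0124), and each of its 3 probe sets was negative, from -0.23 to -0.04. The call was lost without DMSO replicate 3 (adjusted p = 0.0556) and on the mean of all TET3 probe sets (-0.16, adjusted p = 0.0516). TET2, which is often mutated in myeloid leukaemia, was at 8.44, 8.43 and 8.37 in DMSO and at 8.32, 8.29 and 8.34 in CA, lower on each CA array but not called (-0.10, adjusted p = 0.183). Its other 2 probe sets were at 0.02 and 0.05, and on the mean of all 3 TET2 was at -0.01 (adjusted p = 0.951). Within each array TET1 minus TET3 was -3.54 ± 0.18 in DMSO and -2.75 ± 0.17 in CA, a shift of 0.79, and TET1 minus TET2 shifted by 0.65 (exact permutation p = 0.1 for each, n = 3). In all, 8 such pairs of relatives, chosen after their values were seen, were compared, and the exact p was 0.1 for 7 of them and 0.5 for HDAC9 minus HDAC7.

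**Figure D2:**
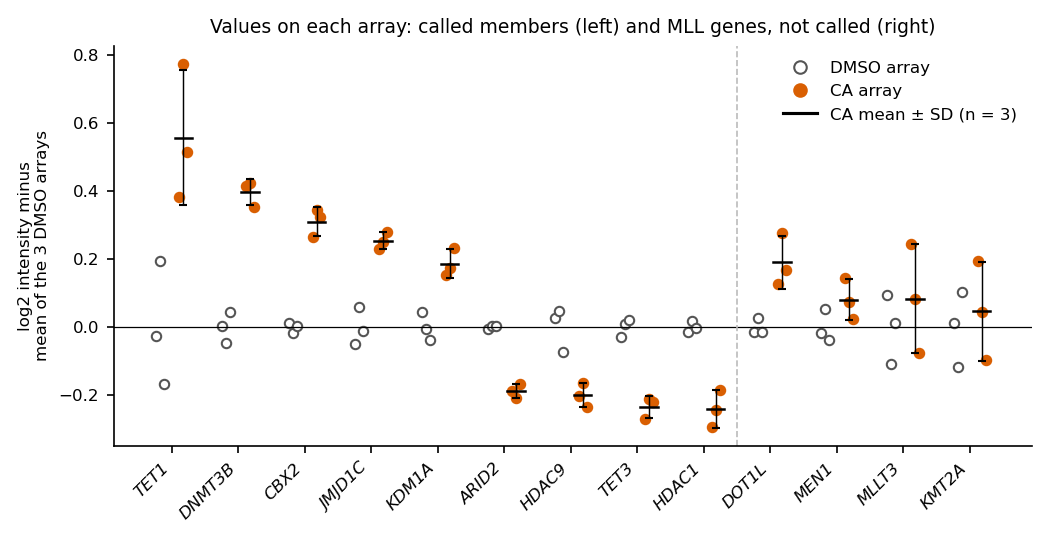
Log2 intensity on each array minus the mean of the 3 DMSO arrays (y axis) for the 9 called genes and, right of the dashed line, for DOT1L, MEN1, MLLT3 and KMT2A, which were not called. Open points are DMSO arrays, filled points CA arrays, and the bars the CA mean ± SD (n = 3); the filled points of each called gene lie on 1 side of its open points, while those of MEN1, MLLT3 and KMT2A overlap them.

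Of 6 deacetylase genes 2 fell and 0 rose, beside 18.2% called among all genes at a mean log2 of at least 6. HDAC1 (chr1:32292083-32333626), a class I deacetylase of the NuRD, Sin3 and CoREST complexes, was at 11.84, 11.87 and 11.85 in DMSO and at 11.56, 11.61 and 11.67 in CA. All CA values were lower (1.18-fold, -0.24, SE 0.04, adjusted p = 0.0163). The call held without CA replicate 3 (adjusted p = 0.028) and was lost with any other array left out (up to 0.0625). Its close relative HDAC2, of the same complexes, was at 12.41, 12.46 and 12.40 in DMSO and at 12.42, 12.45 and 12.40 in CA, so that these groups coincided (0.00, -0.09 to 0.09). HDAC1 minus HDAC2 within each array went from -0.57 ± 0.02 to -0.81 ± 0.07 (exact permutation p = 0.1, n = 3), a pair also chosen after its values were seen. HDAC1 has 1 probe set, and with replicate number added as a block its adjusted p was 0.0591.

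HDAC9 (chr7:18086825-19002416), a class IIa deacetylase, was at 8.90, 8.92 and 8.80 in DMSO and at 8.67, 8.71 and 8.64 in CA, with no overlap (1.15-fold lower, -0.20, SE 0.05, adjusted p = 0.0421). The call was kept in 4 of 10 other settings, the fewest of the 9 called genes. It was kept without DMSO replicate 3 (adjusted p = 0.0482) and lost with any other array left out (up to 0.126). With arrays centred on their medians HDAC9 had an adjusted p of 0.0623, centred on reference genes 0.108, and with replicate number added as a block 0.0717. Its probe sets disagreed, since 1 of the 4 others was at 0.19, opposite in sign and near a call (adjusted p = 0.056 per probe set), and on the mean of all 5 HDAC9 was at -0.00 (adjusted p = 0.981). HDAC3, the enzyme of the NCoR complex, was at -0.01, the class IIa gene HDAC7 at -0.11 and the NAD-dependent deacetylase SIRT1 at 0.05 (adjusted p of 0.37 to 0.919).

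Among acetyltransferases, BET readers and NSD1, 0 of 6 were called by limma, and 1 (CREBBP) had an unadjusted p under 0.05. CREBBP, a coactivator acetyltransferase, was at 9.83, 9.90 and 9.83 in DMSO and at 9.94, 10.03 and 9.97 in CA, apart without a call (0.12, adjusted p = 0.128). Its other 3 probe sets were at -0.04 to 0.04, and on the mean of all 4 CREBBP was at 0.03 (adjusted p = 0.642). Its paralog EP300 was at 0.03 (-0.08 to 0.13). KAT6A, an acetyltransferase fused in some myeloid leukaemias, was at -0.03 (-0.16 to 0.11). The bromodomain genes BRD2 and BRD3, whose proteins bind acetylated histones, were at 0.00 (-0.12 to 0.13) and -0.00 (-0.09 to 0.09). The H3K36 methyltransferase NSD1 was at -0.11 with a wide interval (-0.37 to 0.15).

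For 33 of the 37 members that were not called, the 95% confidence interval lay within 1.2-fold in either direction. The exceptions were DOT1L, MLLT3, HDAC7 and NSD1, whose intervals reached further. The count of calls moved with the genes tested: when the 10997 genes at a mean log2 of 6 or more were fitted alone, 15 of the 46 members were called (32.6%), against 31.4% of those genes. The 6 added were ASH2L, DOT1L, EED, SMARCA4, CREBBP and PSIP1, with adjusted p of 0.0158 (DOT1L) to 0.0403 (CREBBP). With arrays centred on reference genes 9 members rose and 2 fell, and over all genes the share of calls that were higher was 79.6% in place of 59.7%. Of the 6 reference genes measured, 3 changes were positive and 3 negative. HPRT1 was called lower (-0.21, adjusted p = 0.0131), though its other probe set was at 0.16. GAPDH was lower on each CA array without a call (-0.14, adjusted p = 0.0649), and ACTB higher on each (0.05). This centring shifted the median change over all genes by 0.053, toward rises and away from falls.

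The calls for single genes were fewer when each probe set was tested alone. Of the 153 probe sets of the 46 genes, 5 (3.27%) were called over all 54613 non-control probe sets, of which 5.01% were called. They were the probe sets used for CBX2, DNMT3B, HDAC1, JMJD1C and TET3, and 28 of the 153 had an unadjusted p under 0.05. The share of all probe sets at that unadjusted level was not counted, so no excess can be read from the 28. DNMT3B, HDAC1 and KDM1A have 1 probe set each, and in ARID2, TET1 and TET3 all probe sets pointed the same way.

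**Figure D3:**
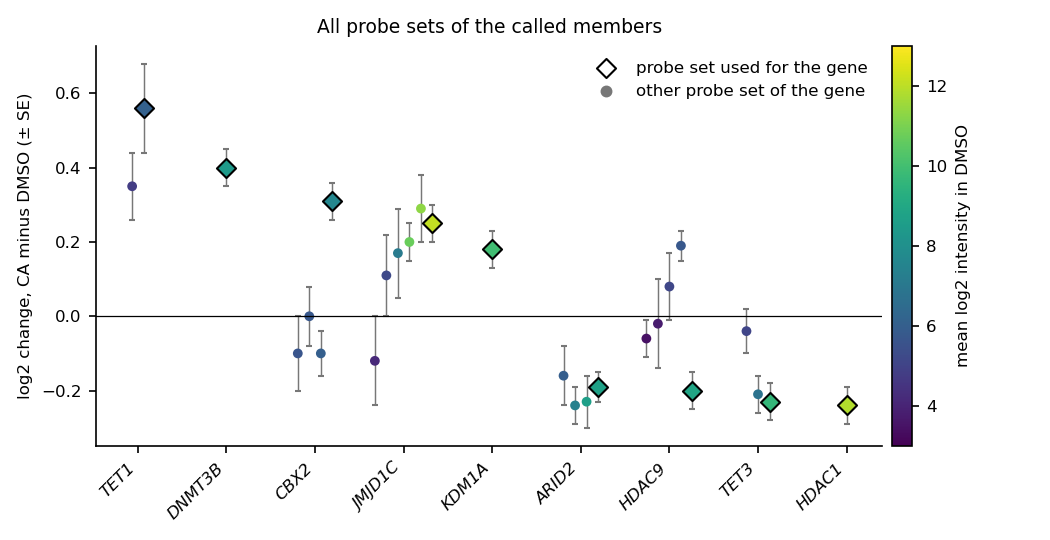
Log2 change, CA minus DMSO, with SE (y axis) of every probe set of the 9 called genes; the colour gives the mean log2 intensity in DMSO, and diamonds mark the probe set that represents the gene. All points of TET1, ARID2 and TET3 lie on 1 side of 0, while CBX2 and HDAC9 have dimmer probe sets at or across 0, up to 0.19 for HDAC9.

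**Figure D4:**
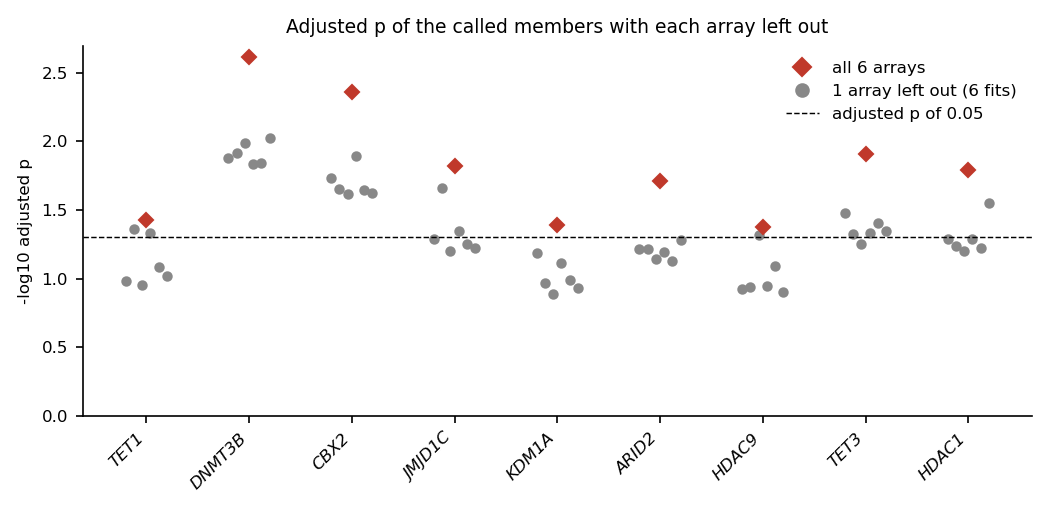
Adjusted p of the 9 called genes as -log10 (y axis) on all 6 arrays (diamonds) and in the 6 fits that leave out 1 array each (points); the dashed line is 0.05. Every point of DNMT3B and CBX2 lies above the line, and every point of KDM1A and ARID2 lies below it.

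Other genes of the same complexes were counted from a list of 102, of which 96 were measured. Of these 11 rose and 6 fell (17.7% called, against the 11.1% and 18.2% given above), and the median change was -0.01. In Polycomb repressive complex 1, 3 of 11 rose and 1 fell. RYBP, a subunit of its variant forms, rose 1.32-fold (0.40, SE 0.04, adjusted p = 0.00114), and the Polyhomeotic genes PHC2 (0.27) and PHC3 (0.24) rose too. CBX6, another CBX reader, fell 1.41-fold (-0.50, SE 0.05, adjusted p = 0.00189), the largest change in the list, while the member CBX2 rose. CBX6 minus CBX2 was not tested as a difference. In Polycomb repressive complex 2, 1 of 7 rose and 1 fell. JARID2, which guides the complex to its sites, went from 11.22 ± 0.03 to 11.65 ± 0.01 (SD, n = 3; 1.35-fold, adjusted p = 8.69e-04), the smallest adjusted p among both lists. Of the probe sets of JARID2 2 of 3 were called and of those of RYBP 3 of 4, all with positive changes, and on the mean of all probe sets JARID2 was at 0.28 (adjusted p = 0.0146) and RYBP at 0.34 (adjusted p = 0.00396). With probe sets ending in _x_at or _s_at dropped, 1 JARID2 change of 0.02 (adjusted p = 0.938) and 1 RYBP change of 0.07 (adjusted p = 0.741) were left. With the most variable probe set PHC2 was at -0.07 (adjusted p = 0.861).

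Beside the MLL partners, AFF1, the gene of the AF4 partner and elongation factor, rose 1.23-fold (0.30, adjusted p = 0.00341), the only gene called of 4, but on the mean of its 3 probe sets AFF1 was at 0.15 (adjusted p = 0.273). KMT2D, an enhancer H3K4 methyltransferase related to MLL, fell (-0.23, adjusted p = 0.0218), 1 of 10 in its group, and its call was lost in 5 of the 6 fits with 1 array left out. With its most variable probe set KMT2D was at 0.12 (adjusted p = 0.776). The deacetylase SIRT2 rose (0.37, adjusted p = 0.00275), 1 of 12, and was called on the mean of both probe sets (0.35, adjusted p = 0.00469) but not on the more variable one (0.34, adjusted p = 0.104). In the acetyltransferase group 2 of 19 rose, among them the arginine methyltransferase CARM1 (0.22, adjusted p = 0.0193), and 1 fell, the acetyltransferase KAT2B (-0.46, adjusted p = 0.0146). With 1 array left out KAT2B was called in 2 of 6 fits, CARM1 in 1 and PHC3 in 0, whereas CBX6, JARID2, RYBP, SIRT2, AFF1 and PHC2 were called in all 6. In the other groups 2 of 10 demethylases rose, 1 of 16 SWI/SNF genes fell, and 1 of 7 DNA methylation genes rose and 1 fell. Over all genes 11.1% were called, and 18.2% of those at a mean log2 of at least 6.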

How the data were processed

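Arrays were hybridised per the labels' protocols with RNA isolated by either of 2 kits, not assigned to samples in the labels. The authors deposited 1 log2 intensity for each probe set and array, made with RMA and affy per the submitters' processing notes, without versions; RMA compresses large folds. On arrays their number limits the precision.

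Of 54675 probe sets, 41091 had 1 gene symbol, 1801 several and 11721 none, and 62 were controls; 41037 matched a GRCh38.p14 gene table by Entrez number. No level filter was applied. The 2 groups were fitted with limma 3.58.1 under R 4.3.3 (lmFit, eBayes, 2-sided, without covariates), tested on simulated data, with Benjamini-Hochberg adjustment over all genes and calls under 0.05. Exact permutation tests used scipy 1.17.1. All members, and the 10 called genes of the second list with the largest changes, could be named. Members, lists and motifs were chosen with earlier results of these data known. Alternatives covered probe set choice, level filters, centring, moderation, array weights, a replicate block, thresholds and each array left out. Replicate numbers were not used to pair the samples, except in the replicate block.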

Additional observations from a re-analysis of the deposited data

How the results depend on the processing

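Deviations of same-numbered arrays from their group means correlated at 0.0225 to 0.0299, and those of differently numbered arrays at -0.0815 to 0.0603. The main fit used no pairing, and whether same-numbered samples share a batch was not tested. With the replicate block, 1118 genes were called in all, 3 members rose and 1 fell, and 4 genes of the second list rose and 2 fell. Leaving out 1 array gave 1173 to 1331 calls over all genes in place of 2202, 2 to 4 members higher, 1 or 2 lower, and 5 or 6 higher and 1 or 2 lower in the second list. The mean of all probe sets gave 1753 calls over all genes, 3 members higher and 2 lower (median log2 change of members -0.004). The probe set of largest variance gave 1411 calls, 3 members higher, 2 lower and 4 of the second list higher. There PHC2 was at -0.07 and KMT2D at 0.12, reversed and uncalled. Dropping probe sets with the suffix _x_at or _s_at gave 1336 calls, 3 members higher (35 members tested, median -0.002) and 4 of the second list higher. At a mean log2 of at least 5 there were 3056 calls over all genes, and 9 members and 17 of the second list rose. At least 6 gave 3453 calls, 10 members higher, and 18 higher and 11 lower in the second list. The intensity trend with robust moderation gave 3814 calls, 10 members higher and 15 of the second list lower. Centring on reference genes gave 2617 calls over all genes, 9 members higher and 2 lower (median 0.063), and 18 higher and 3 lower in the second list. At an adjusted p under 0.01 there were 885 calls, 2 members higher and 0 lower, 5 and 1 in the second list and 1 probe set of the members. Under 0.1 there were 3301 calls over all genes, 8 members rose and 14 probe sets of the members were called. Requiring at least 1.2-fold left 1249 calls, 3 members higher and 0 lower, and 5 and 2 in the second list. No member that was called on all arrays changed sign under any of these settings. The cause of the changes in count between settings was not tested.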
